A study of Mus musculus with 7 samples.

Results

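The genes described here build and run the lysosome and autophagy, the routes by which a cell degrades its own components. They are 36 mouse genes in 7 roles, namely lysosomal enzymes and their cofactors, membrane proteins and channels, proton-pump subunits, transcriptional regulators, and genes of autophagy initiation, conjugation and cargo binding. They were chosen by name, and their probes were found through the transcript accessions that the scanner files give. All 36 had at least 1 probe (57 probes to 41 transcripts, of 56605 probes in all), and all 36 were among the 22060 genes that passed the filter on dim probes and were tested.

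RNA came from MIN6, an insulin-secreting line derived from mouse beta cells and used at passages 20 to 30. The vehicle group (3 arrays) received phosphate-buffered saline (PBS) and the MPE group (4 arrays) received Maidong polysaccharide extract, each for 3 days. MPE was used in culture at 0.05 to 50 μg/mL, and the concentration behind the arrays is not in the labels. Whether the replicates were separate cultures is not stated either, so the spread that the p-values measure may be technical. The question put to the arrays is which of these transcripts differed after 3 days with the extract.

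Lysosomes hold acid hydrolases that a proton pump, the V-ATPase, keeps active, and autophagy delivers cytoplasm to them in vesicles whose membranes carry lipid-bound ATG8 proteins. The related transcription factors TFEB and TFE3 bind an E-box in the promoters of many lysosomal genes, and the kinase mTORC1 holds them in the cytoplasm by phosphorylation, so that their activity is set largely after transcription. In beta cells the same routes degrade old or surplus insulin granules and damaged mitochondria.

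Promoter sequences are shown first, because the E-box is the feature that ties many of these genes to their 2 regulators on the list. RefSeq promoters of the assembly GRCm38.p6, from 250 bases before to 50 bases after the start site, were listed for 28 of the 36 genes. The core letters CACGTG, the same on both strands, occurred in a listed promoter of 11 of these 28 genes (39.3%), against 8.09% of the 27025 genes in the table. Per promoter the shares were 33.3% of 33 and 7.15% of 32851. The longer palindrome TCACGTGA, which contains the core, occurred for 4 of the 28 (14.3%), namely Atp6v0d1, Ctsa, Ctsd and Mcoln1, against 1.12% of all genes. The form CACGTGA or its complement TCACGTG, which also contains the core, occurred for 9 (32.1%) against 4.29%. A match is a description of letters and no evidence of binding.

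The stretches below carry the core in capitals, 5′ to 3′ on the strand of the gene. Lamp1 (chr8:13159088-13159160, plus strand) is shown for its 4 copies, whose first bases lie at -61, -45, -28 and -15 from the start site. Mcoln1 (chr8:3500436-3500491, plus) has copies at -71 and -45, Ctsa (chr2:164833749-164833772, plus) at -12 and, outside the stretch shown, at 6, Ctsd (chr7:142387908-142387937, minus) at -98 and, outside the stretch, at -245, and Atp6v0d1 (chr8:105566050-105566079, minus) at -3, and these are the genes with the longer palindrome. Gaa (chr11:119267811-119267840, plus, copy at -140) and Atg7 (chr6:114670952-114670981, plus, copy at -132) are shown because the results below return to both.
Lamp1: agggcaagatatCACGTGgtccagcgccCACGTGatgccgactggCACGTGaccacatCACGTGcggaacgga
Mcoln1: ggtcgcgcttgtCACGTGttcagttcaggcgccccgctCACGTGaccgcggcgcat
Ctsa: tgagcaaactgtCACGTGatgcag
Ctsd: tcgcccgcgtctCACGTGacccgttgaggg
Atp6v0d1: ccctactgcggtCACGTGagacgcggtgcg
Gaa: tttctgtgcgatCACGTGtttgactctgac
Atg7: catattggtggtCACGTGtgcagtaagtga

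All 7 arrays lay on 1 slide, with vehicle in the first row (columns 1, 2 and 4) and MPE in the second (columns 1 to 4), which means that treatment and slide row cannot be told apart. Probes well above background, the array software's flag for a spot clearly brighter than its surroundings, numbered 29496 to 30111 on vehicle and 27901 to 28465 on MPE arrays. Every MPE array thus had fewer than every vehicle array, a difference that was not tested. For the lysosome and autophagy probes the number was 54 to 56 per array. The mean was 55.3 on vehicle and 54.5 on MPE arrays (exact permutation test over the 35 splits, two-sided p = 0.2857, where the smallest possible is 0.0286). Of 15 beta-cell markers, 14 were well above background on all 7 arrays, and the glucose transporter gene Slc2a2 was on none. Macrophages are rich in lysosomal transcripts. Of 15 markers of macrophages and other leukocytes, 5 (Csf1r, Cd68, Itgam, C1qa and Cd3e) were well above background on all arrays, and 6, among them Adgre1, Lyz2, Aif1 and Mrc1, were on none.

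None of the 36 lysosome and autophagy genes was called different on MPE arrays. By limma with Benjamini-Hochberg adjustment over all 22060 genes, 0 of the 36 were called at an adjusted p under 0.05, where 0.00453% of all genes were called higher and 0% lower. At an unadjusted p under 0.05 the count was also 0 of 36, where 4.11% of all genes passed (0.757% higher and 3.35% lower). For the probes that represent the genes, the MPE arrays lay all above or all below the vehicle arrays in 0 of 36, a separation found for 4.53% of all genes (1.17% higher and 3.36% lower). Every adjusted p of the 36 was 1.00, and the smallest unadjusted p by limma was 0.240, for Lamp1. An array averages over all cells of a culture, so fewer cells with a transcript and less transcript per cell cannot be told apart.

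The differences were small and their intervals were narrow. On the log2 scale 16 of the 36 genes had a higher and 20 a lower MPE mean, none past the test, with a median difference of -0.0093 beside -0.016 for all genes tested. All genes split into 9329 higher and 12731 lower. Median scaling lowers every difference by the same amount, and after it the 36 genes split into 4 higher and 32 lower and all genes into 3780 and 18280. After normexp background correction the 36 genes split into 21 higher and 15 lower and all genes into 9932 and 12128. The differences ran from -0.09 (Ctsd) to 0.14 (Atg9a), with a median standard error of 0.065 beside 0.091 for all genes. The 95% interval lay within 1.2-fold of equality for 29 of 36 genes (80.6%, against 45.1% of all genes) and within 1.5-fold for 36 of 36 (against 80.7%). The 36 genes were bright, with a median level on each array of 4.25 to 4.37 log2 units above the 75th percentile of its probes. Intervals were not compared between genes of equal brightness. The 7 genes with wider intervals than 1.2-fold were Ctsd, Gaa, Tfeb, Becn1, Atg9a, Atg5 and Map1lc3a.

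**Figure D1:**
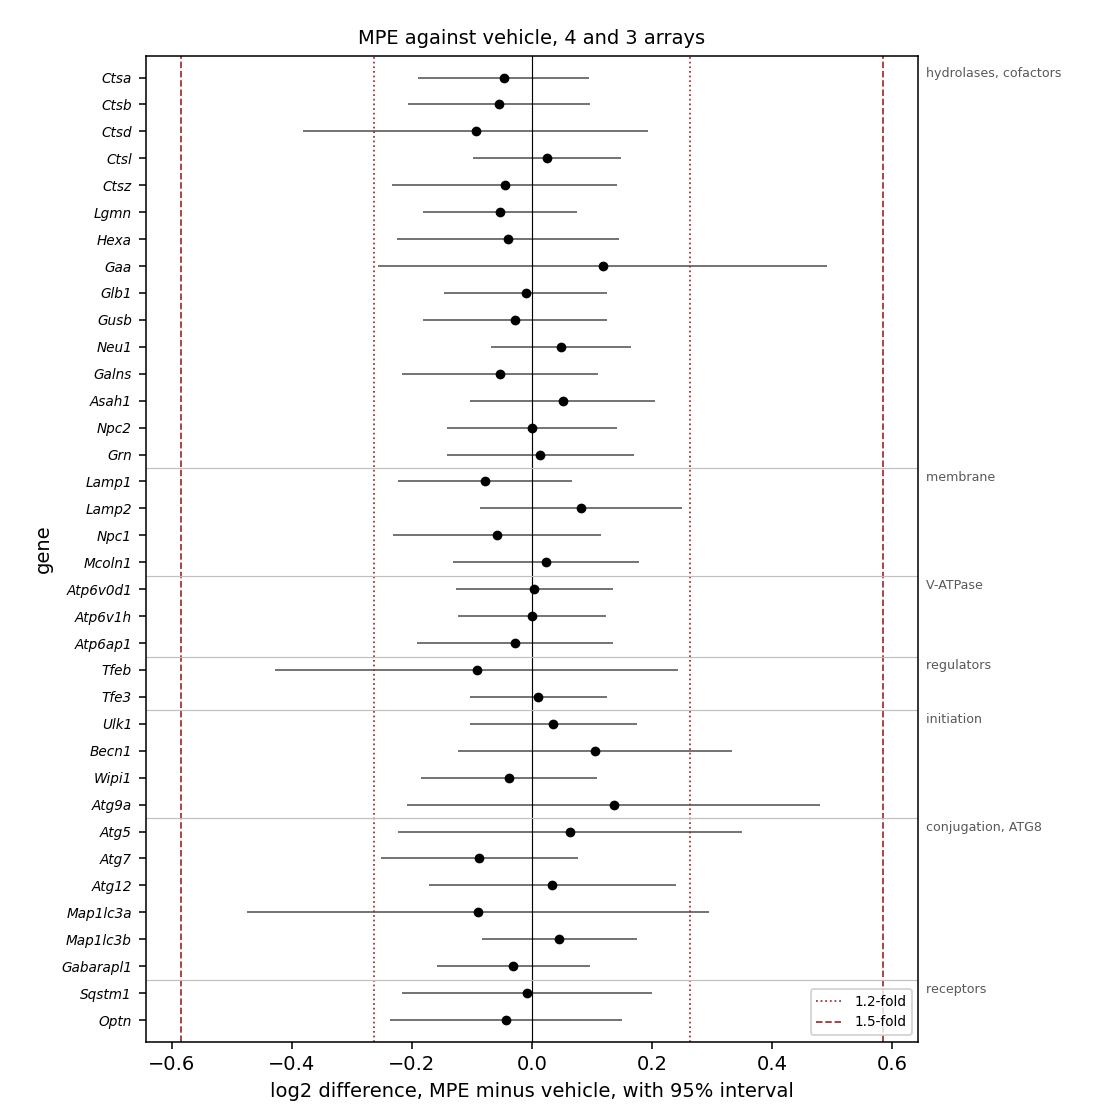
Log2 difference between the MPE mean (4 arrays) and the vehicle mean (3 arrays) for each of the 36 genes (points), with its 95% interval from limma (lines), grouped by role; dotted and dashed lines mark 1.2-fold and 1.5-fold in either direction. Every interval includes 0, and 29 of 36 lie within the 1.2-fold lines.

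Levels in what follows are log2 processed intensity minus the 75th percentile of the array, given in the order of replicates 1 to 3 for vehicle and 1 to 4 for MPE. Each probe has its own response, so levels are compared between arrays and not between genes. Folds are MPE over vehicle, with 95% intervals. Before scaling, mean processed intensity per gene ran from 220 (Tfeb) to 84342 (Lamp1). The dimmest probe well above background lay between 12.58 and 15.5 on vehicle arrays and between 20.62 and 24.37 on MPE arrays.

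Among the 15 hydrolases and their cofactors, 5 had higher and 10 had lower MPE means, with a median difference of -0.029 and 0 calls. The cysteine protease gene Ctsb stood at 7.33, 7.32 and 7.26 on vehicle and at 7.34, 7.25, 7.13 and 7.27 on MPE arrays, a fold of 0.963 (0.866 to 1.07). All its vehicle values lay within the MPE range. The aspartic protease gene Ctsd stood at 6.17, 6.08 and 5.87 on vehicle and at 6.12, 6.06, 5.71 and 5.89 on MPE arrays, a fold of 0.937 (0.768 to 1.14). Its low arrays were vehicle 3 and MPE 3 and 4, so the groups overlapped and each held high and low arrays. Ctsl, another cysteine protease, stood at 6.69, 6.73 and 6.77 on vehicle and at 6.75, 6.75, 6.82 and 6.70 on MPE arrays, a fold of 1.02 (0.934 to 1.11). Its groups overlapped, with vehicle 1 the lowest array and MPE 3 the highest.

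The probe of Ctsl was one of 300 that the array carries as 10 spots each, which gives a measure of spot error for this gene. The standard deviation over the 10 spots of an array averaged 0.043 log2 units, and that of the array means within groups was 0.045. A single array's mean over 10 spots thus varied between arrays by about as much as single spots varied within an array.

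Of the sugar-cleaving enzymes, Hexa encodes the alpha subunit of beta-hexosaminidase. It stood at 5.52, 5.40 and 5.34 on vehicle and at 5.43, 5.51, 5.29 and 5.30 on MPE arrays, a fold of 0.972 (0.855 to 1.11). The 2 lowest values were those of MPE 3 and 4, and the highest was that of vehicle 1. Gaa, the acid alpha-glucosidase that degrades glycogen in lysosomes, stood at 0.36, 0.47 and 0.14 on vehicle and at 0.54, 0.75, 0.14 and 0.32 on MPE arrays, a fold of 1.08 (0.837 to 1.41). It had the widest spread over arrays of the 36 genes (0.613 from lowest to highest), with MPE 2 high and vehicle 3 and MPE 3 low. A brighter Gaa probe was not used for the test, because its spot on MPE 1 carried an outlier flag. That probe stood at 7.81, 7.62 and 7.68 on vehicle and at 7.79, 7.60 and 7.61 on MPE 2, 3 and 4, a fold of 0.973 (0.843 to 1.12, n = 3 and 3). Its groups overlapped too, and its difference had the opposite sign.

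The groups also overlapped for the other 10 enzymes and cofactors. The carboxypeptidase gene Ctsa, whose product also protects beta-galactosidase and neuraminidase, ranged from 6.79 to 6.97 over the 7 arrays, and the carboxypeptidase gene Ctsz, highest at 6.29 on vehicle 1 and lowest on MPE 3, had a fold of 0.969 (0.851 to 1.10). The asparaginyl protease gene Lgmn ranged from 5.87 to 6.02, with a fold of 0.964 (0.881 to 1.05). The beta-galactosidase gene Glb1 ranged from 4.06 to 4.23, the beta-glucuronidase gene Gusb from 3.81 to 3.99 and the sulfatase gene Galns from 3.25 to 3.44. For these 6 genes the MPE mean was the lower one and the groups overlapped. The sialidase gene Neu1 ranged from 6.41 to 6.54, and all 4 MPE arrays lay above its vehicle mean, with a fold of 1.03 (0.954 to 1.12). The acid ceramidase gene Asah1 ranged from 4.11 to 4.30, the cholesterol-binding Npc2 from 3.53 to 3.69, and Grn, which encodes progranulin, from 6.96 to 7.15. Their folds were 1.04 (0.931 to 1.15), 1.00 (0.906 to 1.10) and 1.01 (0.906 to 1.12).

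Of the 4 membrane genes, 2 had higher and 2 had lower MPE means. Lamp1, an abundant glycoprotein of the lysosomal membrane, stood at 7.86, 7.95 and 7.85 on vehicle and at 7.89, 7.80, 7.71 and 7.83 on MPE arrays, a fold of 0.947 (0.857 to 1.05). MPE 2, 3 and 4 lay below every vehicle array, while MPE 1 lay among them. On the second Lamp1 probe, at 6.16, 6.25 and 6.15 on vehicle and 6.12, 6.13, 5.96 and 6.08 on MPE arrays, all MPE arrays lay below all vehicle arrays. Its log2 difference was -0.11 (SE 0.06; limma adjusted p = 1.00 over all probes). Lamp2, whose isoforms serve vesicle fusion and chaperone-mediated autophagy, stood at 3.46, 3.37 and 3.41 on vehicle and at 3.51, 3.57, 3.56 and 3.34 on MPE arrays, a fold of 1.06 (0.942 to 1.19). MPE 1, 2 and 3 lay above every vehicle array and MPE 4 below every one. A probe to another Lamp2 transcript differed by 0.0051 on the log2 scale.

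Npc1, which exports cholesterol from lysosomes together with NPC2, stood at 2.57, 2.58 and 2.49 on vehicle and at 2.55, 2.60, 2.37 and 2.42 on MPE arrays, a fold of 0.960 (0.852 to 1.08). MPE 3 and 4 were its lowest arrays and MPE 2 its highest. The calcium channel gene Mcoln1 stood at 4.90, 4.76 and 4.80 on vehicle and at 4.85, 4.94, 4.81 and 4.76 on MPE arrays, a fold of 1.02 (0.913 to 1.13). All MPE values but that of MPE 2 lay within the vehicle range.

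Of the 3 V-ATPase genes, 2 had higher and 1 had a lower MPE mean, with a median difference of 0.00021. Atp6v0d1, a subunit of the membrane sector, stood at 4.38, 4.48 and 4.35 on vehicle and at 4.44, 4.40, 4.35 and 4.44 on MPE arrays, a fold of 1.00 (0.916 to 1.10). All its MPE values lay within the vehicle range. Atp6v1h, a subunit of the cytosolic sector, stood at 4.94, 4.99 and 5.02 on vehicle and at 5.00, 5.04, 4.95 and 4.94 on MPE arrays, a fold of 1.00 (0.918 to 1.09). The accessory subunit gene Atp6ap1 stood at 4.72, 4.88 and 4.82 on vehicle and at 4.89, 4.69, 4.78 and 4.76 on MPE arrays, a fold of 0.980 (0.875 to 1.10). The MPE arrays held both the highest and the lowest Atp6ap1 value.

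The regulators split 1 and 1. Tfeb, the factor that drives many lysosomal genes, stood at -0.59, -0.55 and -0.92 on vehicle and at -0.62, -0.75, -1.08 and -0.65 on MPE arrays, a fold of 0.938 (0.743 to 1.18). MPE 3 was the lowest array and the other MPE arrays lay within the vehicle range. Tfe3, its close relative, stood at 3.51, 3.55 and 3.56 on vehicle and at 3.51, 3.54, 3.56 and 3.59 on MPE arrays, a fold of 1.01 (0.931 to 1.09). With 0.084 from lowest to highest array, Tfe3 varied least of the 36 genes. The genes with the core E-box letters in a listed promoter (11) had 5 higher and 6 lower means and a median difference of -0.011, and the 17 without had 7 higher, 10 lower and a median of -0.0077.

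**Figure D2:**
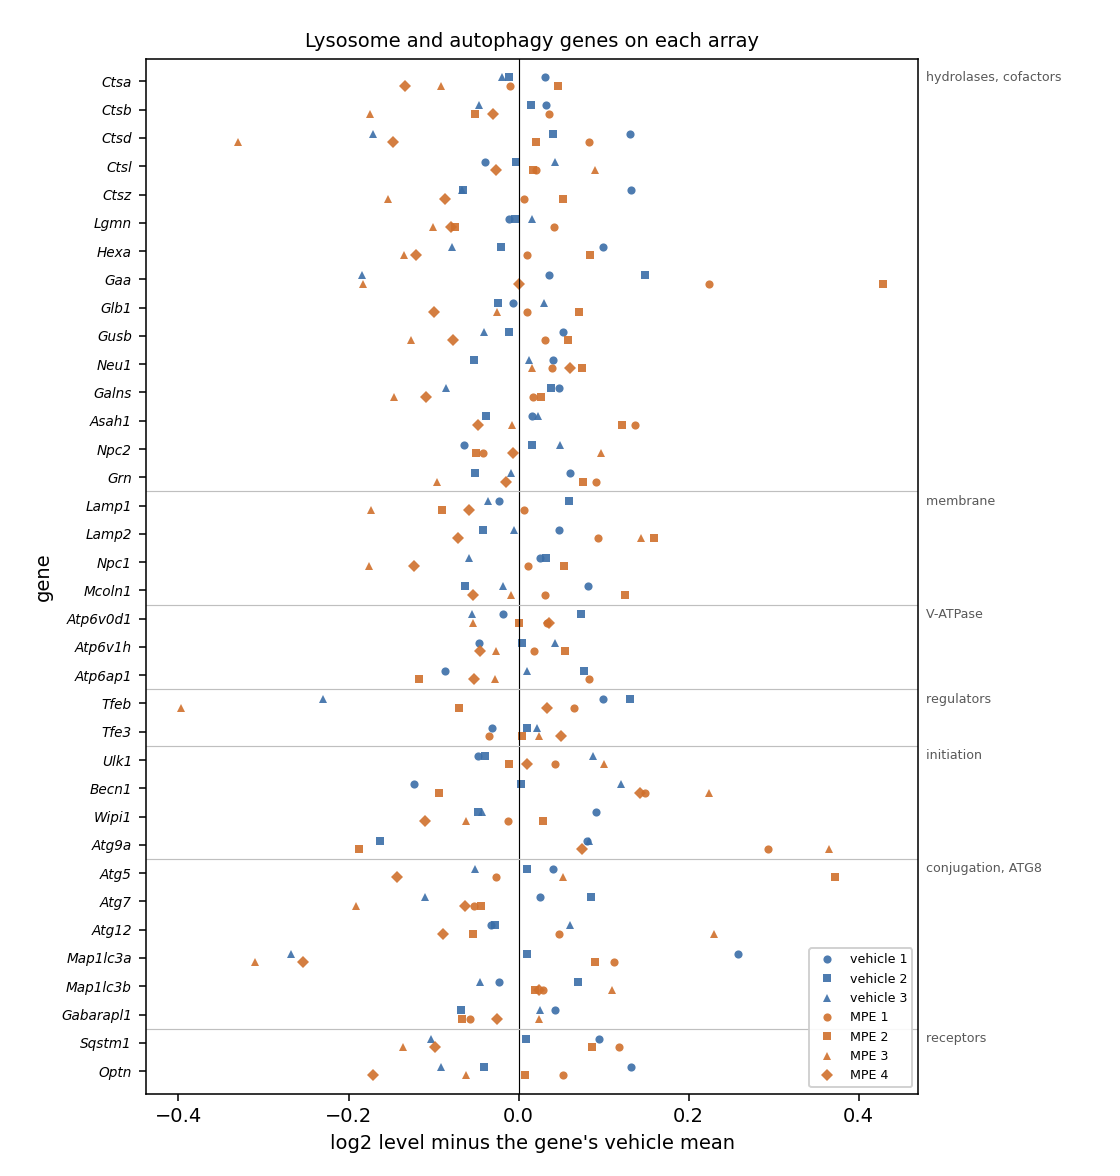
Log2 level of each gene on each of the 7 arrays, as the difference from the gene's vehicle mean; colours mark the treatment and symbols the replicate. The vehicle and MPE arrays overlap for all 36 genes, with the widest spread for Gaa and the narrowest for Tfe3.

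In autophagy initiation and phagophore growth, 3 genes had higher and 1 had a lower MPE mean, with a median difference of 0.070. Ulk1, the kinase that starts autophagy, stood at 3.84, 3.85 and 3.98 on vehicle and at 3.93, 3.88, 3.99 and 3.90 on MPE arrays, a fold of 1.02 (0.931 to 1.13). Its vehicle 3 and MPE 3 arrays were high. Becn1, a subunit of the lipid kinase complex that marks the phagophore, stood at 1.54, 1.66 and 1.78 on vehicle and at 1.81, 1.57, 1.88 and 1.80 on MPE arrays, a fold of 1.08 (0.919 to 1.26). MPE 1, 3 and 4 lay above every vehicle array, and MPE 2 lay within the vehicle range. Wipi1, which reads the lipid made by that complex, stood at 6.77, 6.63 and 6.64 on vehicle and at 6.67, 6.71, 6.62 and 6.57 on MPE arrays, a fold of 0.973 (0.879 to 1.08). Atg9a, a lipid scramblase of the vesicles that seed the phagophore, stood at -0.70, -0.94 and -0.70 on vehicle and at -0.49, -0.97, -0.42 and -0.71 on MPE arrays, a fold of 1.10 (0.866 to 1.40). Atg9a on MPE 1 and 3 lay above, and on MPE 2 below, every vehicle array.

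The conjugation enzymes and the ATG8 proteins they attach to lipid split 3 and 3, with a median difference of 0.00092. Atg7, the activating enzyme of both conjugation systems, stood at 0.65, 0.71 and 0.52 on vehicle and at 0.58, 0.58, 0.44 and 0.56 on MPE arrays, a fold of 0.941 (0.840 to 1.05). All 4 MPE arrays lay below the vehicle mean, but vehicle 3 lay below MPE 1, 2 and 4, so the groups overlapped. Atg5 and Atg12, whose products are joined to each other, stood on vehicle at 2.65, 2.62 and 2.56 for Atg5 and at 2.99, 2.99 and 3.08 for Atg12. On MPE arrays Atg5 stood at 2.59, 2.98, 2.66 and 2.47, a fold of 1.05 (0.857 to 1.27). Atg12 stood on MPE arrays at 3.07, 2.97, 3.25 and 2.93, a fold of 1.02 (0.887 to 1.18). A different array was high for each, MPE 2 for Atg5 and MPE 3 for Atg12, and MPE 4 was the lowest for both.

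Map1lc3b, the LC3 form most used as an autophagosome marker, stood at 5.29, 5.39 and 5.27 on vehicle and at 5.35, 5.34, 5.43 and 5.34 on MPE arrays, a fold of 1.03 (0.944 to 1.13). All 4 MPE arrays lay above its vehicle mean, and vehicle 2 lay above MPE 1, 2 and 4. Map1lc3a stood at 2.08, 1.83 and 1.55 on vehicle and at 1.93, 1.91, 1.51 and 1.57 on MPE arrays, a fold of 0.939 (0.720 to 1.23). The low arrays were again vehicle 3 and MPE 3 and 4. Gabarapl1, an ATG8 protein of the other subfamily, stood at 5.78, 5.67 and 5.76 on vehicle and at 5.68, 5.67, 5.76 and 5.71 on MPE arrays, a fold of 0.978 (0.896 to 1.07). All its MPE values lay within the vehicle range.

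Both receptor genes had lower MPE means, with differences far inside their errors. Sqstm1, which encodes the ubiquitin-binding receptor p62 and is itself degraded by autophagy, stood at 7.59, 7.50 and 7.39 on vehicle and at 7.61, 7.58, 7.35 and 7.39 on MPE arrays, a fold of 0.995 (0.861 to 1.15). Optn, a receptor for ubiquitin-tagged mitochondria and bacteria, stood at 1.54, 1.37 and 1.32 on vehicle and at 1.46, 1.42, 1.35 and 1.24 on MPE arrays, a fold of 0.970 (0.849 to 1.11). For Sqstm1 the low arrays were vehicle 3 and MPE 3 and 4, and for Optn the high array was vehicle 1 and the low array MPE 4.

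More than 1 probe was available for 18 of the 36 genes, and 54 of the 57 probes passed the filter. Another probe differed in sign or by more than 0.2 on the log2 scale for Sqstm1, Ulk1, Atp6ap1, Gabarapl1, Galns and Glb1 among the probes that passed, and for Gaa as given above. The second Sqstm1 probe stood at 3.11, 3.10 and 3.57 on vehicle and at 3.27, 3.33, 3.63 and 3.58 on MPE arrays, a log2 difference of 0.20 (SE 0.15). Vehicle 3 and MPE 3 and 4 were its highest arrays, whereas they were the lowest for the probe that represents Sqstm1. The second Ulk1 probe differed by -0.18 (SE 0.09), against 0.04 for the probe used. It was dim, with a highest level of -3.55. The second probes of Atp6ap1, Gabarapl1, Galns and Glb1 differed by 0.03, 0.01, 0.01 and 0.06, where the probes used gave small negative differences. Both further Grn probes differed by 0.18, with standard errors of 0.18 and 0.19, on the same side as the probe used. None of these probes had a 95% interval that excluded equality.

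**Figure D3:**
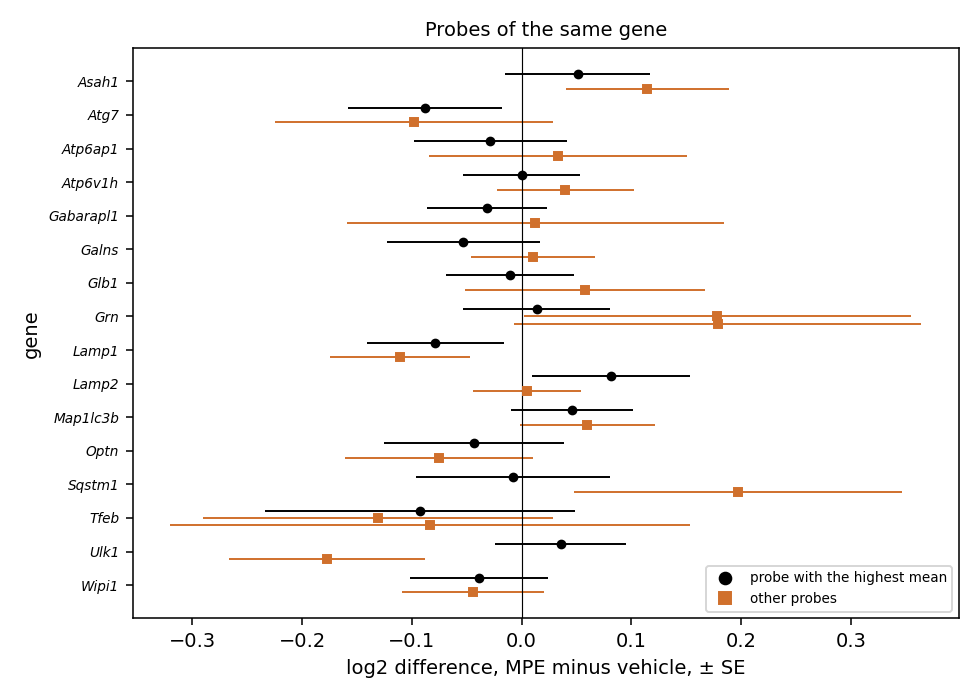
Log2 difference (MPE minus vehicle) with its standard error from limma for the probes of the genes with more than 1 tested probe; circles mark the probe with the highest mean, which represents the gene, and squares the others. Circle and square lie on opposite sides of 0 for Sqstm1, Ulk1, Atp6ap1, Gabarapl1, Galns and Glb1.

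The slide gave a second way to split the arrays, since vehicle 3 and MPE 3 and 4 lay in slide columns 3 and 4 and the other arrays in columns 1 and 2. This split was chosen after the values were seen. The 3 arrays of columns 3 and 4 lay all below or all above the 4 others for 13 of the 36 genes, where 27.8% of all genes separated in this way. They were lower for 12 genes, 7 of them enzymes or cofactors (Ctsa, Ctsd, Ctsz, Hexa, Gaa, Gusb and Galns) and the others Npc1, Atg7, Map1lc3a, Sqstm1 and Optn, and higher for Tfe3. All counts of this split are those of the probe that represents each gene. The second Atg7 probe was lower in the same way. The second Sqstm1 probe was higher, at 3.57 on vehicle 3 and 3.63 and 3.58 on MPE 3 and 4, against 3.10 to 3.33 elsewhere. On the second probes of Optn and Galns the 2 sets of arrays overlapped. Map1lc3a was lower in columns 3 and 4 by a log2 difference of -0.40 within vehicle and -0.38 within MPE, Gaa by -0.28 and -0.42, and Ctsd by -0.26 and -0.29. Becn1 and Atg9a ran the other way, at 0.18 and 0.16 for Becn1 and at 0.12 and 0.17 for Atg9a, with the 2 sets of arrays overlapping. The Gaa values are those of its dimmer probe. Its brighter probe stood at 7.68 on vehicle 3 and at 7.60 and 7.61 on MPE 3 and 4. On vehicle 1 and 2 and MPE 2 it stood at 7.81, 7.62 and 7.79, so the 2 sets overlapped. The sign was shared by vehicle and MPE for 29 of 36 genes (80.6%), against 71.0% of all genes. Over all genes 3558 were lower and 2579 higher in this way. In either direction the share of the 36 genes (36.1%) lies near that of all genes. Of the genes that separated, a larger part was lower among the 36 than among all genes. Since the split was chosen after the values were seen, no conclusion about the 36 is drawn from this, and it was not tested. What else differed between those arrays was not tested.

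**Figure D4:**
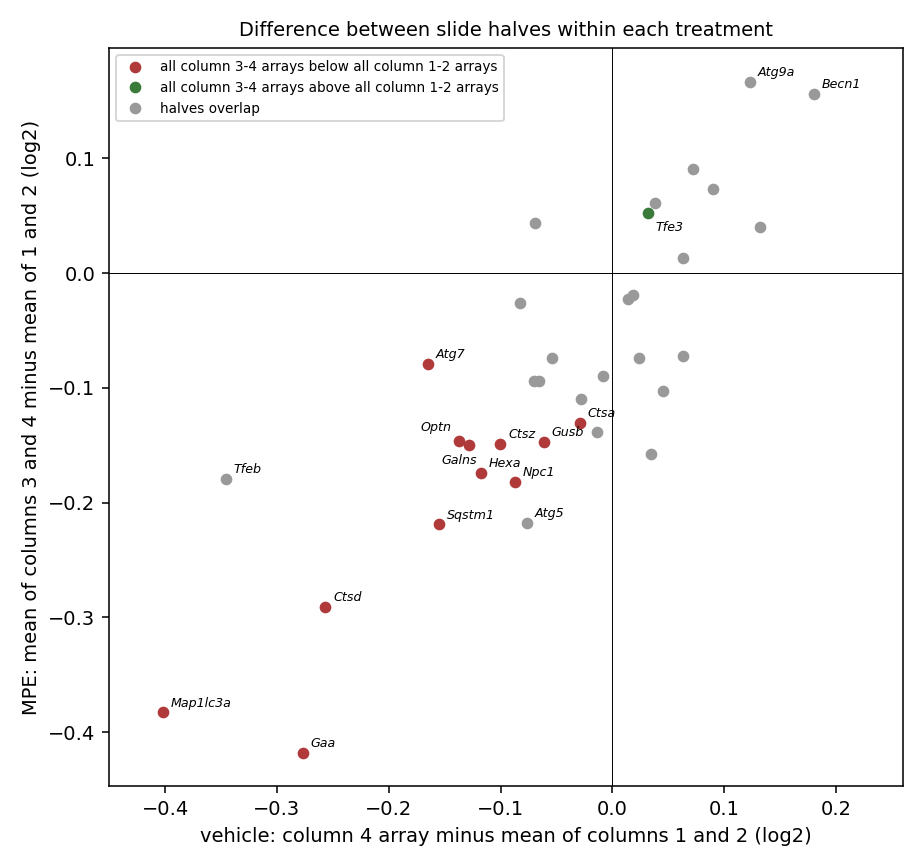
For each gene, on the probe that represents it, the log2 level in slide columns 3 and 4 minus that in columns 1 and 2, within vehicle (horizontal axis) and within MPE (vertical axis). Red points are the 12 genes lower on all arrays of columns 3 and 4, green is Tfe3, and 29 of 36 points lie in the lower left or upper right.

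Within single slide columns the treatment difference had no common direction for most genes. The median over the 36 genes of MPE minus vehicle was 0.010 in column 1 (19 higher and 17 lower), 0.025 in column 2 (21 and 15) and -0.036 in column 4 (12 and 24), each from 1 array per group and so with no test. The same sign in all 3 columns was seen for 3 of 36 genes (Gaa, Galns and Sqstm1), where 23.3% of all genes had it. These signs are those of the probe that represents each gene, which for Gaa is the dimmer one.

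Other genes of the pathway did not pass the test either. Of 208 other lysosome and autophagy genes, 191 were tested, and 0 were called by limma at an adjusted p under 0.05, with 88 higher and 103 lower means and a median difference of -0.0073. At an unadjusted p under 0.05 there were 1 higher and 2 lower, where 4.11% of all genes passed. The higher one was Atp6v1e2, which passed the filter on dim probes through MPE arrays alone, as described below. Other hydrolases had 19 higher and 23 lower, other membrane proteins 13 and 17, other V-ATPase subunits 8 and 9, other regulators 15 and 11, other core autophagy genes 14 and 20, other receptors 9 and 11, and endosome-to-lysosome trafficking genes 10 and 13. The groups did not overlap for 5 of the 191, which were Pik3c3 and Gnptab, higher on MPE, and Pink1, Idua and Slc17a5, lower on MPE. Over all genes the share was 4.53%, so neither count stands out from the background. Pik3c3, Gnptab and Pink1 were named after their values were seen, and their folds were 1.05, 1.06 and 0.948.

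The most negative differences in the wider lists were those of a lysosomal transporter and an enzyme, and neither passed the adjusted test. Slc17a5 encodes sialin, which exports sialic acid from lysosomes. It stood at 3.68, 3.73 and 3.45 on vehicle and at 3.27, 3.17, 3.19 and 3.44 on MPE arrays, a fold of 0.784 (0.668 to 0.920; limma adjusted p = 1.00). Averaged over its probes, Slc17a5 differed by -0.21 on the log2 scale in place of -0.35. Idua, the iduronidase of heparan and dermatan sulfate breakdown, stood at 4.12, 4.17 and 3.83 on vehicle and at 3.73, 3.61, 3.62 and 3.83 on MPE arrays, a fold of 0.789 (0.668 to 0.932; limma adjusted p = 1.00). For both genes vehicle 3 and MPE 4, the arrays of slide column 4, nearly met, and the other arrays lay apart. Atp6v1e2, a V-ATPase subunit gene named after its values were seen, was well above background on 0 of 3 vehicle arrays and on 3 of 4 MPE arrays. It stood at -5.81, -5.14 and -6.40 on vehicle and at -5.93, -3.07, -3.86 and -2.55 on MPE arrays, so that MPE 1 lay among the vehicle arrays (limma adjusted p = 1.00). It passed the filter on dim probes through those 3 MPE arrays alone, and no fold is given for it.

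**Figure D5:**
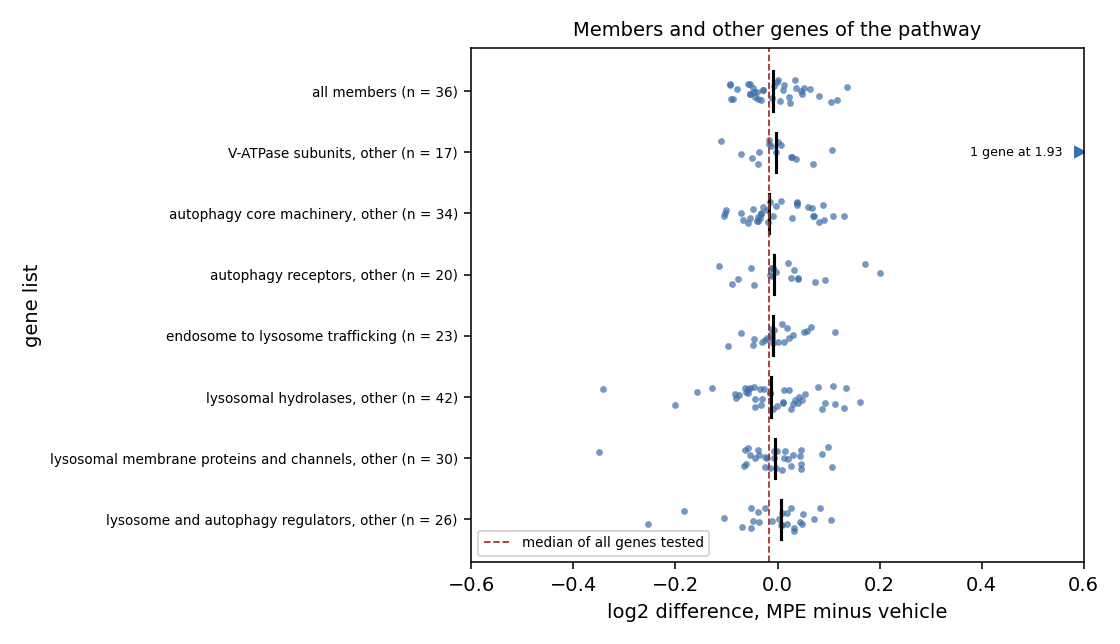
Log2 difference (MPE minus vehicle) of each tested gene in the 36-gene list and in 7 wider lists (points), with the median of each list (black bar) and of all genes tested (dashed line, -0.016); the triangle is Atp6v1e2, drawn at the edge. The medians of all 8 lists lie close to the dashed line, and Slc17a5 and Idua are the points furthest to the left.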

How the data were processed

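Per the labels' protocols, 100 ng of total RNA per sample was labelled with Cy3 for 1-colour Agilent arrays. The deposited files hold spot intensities, and per the file headers the processed intensity was background-subtracted and detrended, and the median spot and background intensities are raw. The headers give Agilent Feature Extraction 11.5.1.1 and the submitters' processing notes 10.5.1.1. Other columns, deposited beside the intensities, are flags (control, well above background, saturated, outlier). The authors' value table holds log2 values with a median of 4.438 on every array. They correlate positively with the log2 intensity of their array (r of at least 0.9996) and are not centred per gene, and the sources used here do not name their tool.

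Spots that were controls or carried an outlier flag (611 values) were removed, and 0 spots were saturated. Log2 processed intensities were reduced by each array's 75th percentile. The filter kept probes that 3 or more arrays measured well above background, and a gene was its probe with the highest mean. Of 56605 probes, 32994 matched a symbol in a RefSeq table (GRCm38.p6, names only). The groups were compared in limma 3.58.1 (lmFit and eBayes, R 4.3.3), treatment being the only term, with Benjamini-Hochberg adjustment at 0.05. The fit was also tested on simulated data with independent noise. Those data held no slide effect, so that test cannot show how the fit behaves with one. The number of arrays limits the precision.

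The genes, the lists and the tests were chosen with earlier results of these data known. By rule, values on every array are given for 26 listed genes and for any other whose groups do not overlap, and genes of the wider lists are named where groups do not overlap and the unadjusted p is under 0.05. Exceptions are said to be named after their values were seen. Alternatives were other scalings, filters, probe rules, variance models, thresholds and blocks, the authors' table, and each array left out. Normexp (offset 50) used median spot intensity, since the mean planned is not in the files used here.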

Additional observations from a re-analysis of the deposited data

Results flagged for a closer look

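Of 39 genes checked in the MPE group, 2 had 1 array far from the other 3, a rule that chance meets in about 1 of 20 groups. Atg7 stood at 0.436 on MPE 3 and between 0.565 and 0.584 on the other MPE arrays. Map1lc3b stood at 5.43 on MPE 3 and between 5.34 and 5.35 on the others. MPE 3 was also the array with the lowest value of all 7 for 14 of the 36 genes and with the highest for 7. The vehicle group, with 3 arrays, was not checked.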

How the results depend on the processing

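Under each alternative run, 0 of the 36 genes were called, and the smallest adjusted p was 0.517 (limma, no filter, Lamp1). Without vehicle 1, 2 or 3 or MPE 1, 2, 3 or 4 in turn, the count of genes called higher among all genes ran from 0 to 3 and lower from 0 to 1, where 1 and 0 were called with all arrays. Genes called higher numbered 0 with normexp, a filter on all 7 arrays, the replicate block or the slide column block, 3 with a trended robust variance or array weights, and 9619 with no filter. Genes called lower numbered 349 with no filter, 2 with each probe tested, 1 with array weights and 1 at an adjusted p under 0.1. With no filter the median of all genes moved to 0.054, and that of the 36 genes remained at -0.0093. Median scaling moved the median of the 36 genes to -0.079 and that of all genes to -0.086. With 1 detection threshold for all arrays, detected probes of the list differed by -0.167 in place of -0.833 (exact permutation test, p = 1). The sign turned for 12 of the 36 genes with median scaling, a shift common to all genes, and for 9 without vehicle 1. Blocked on slide column, where MPE 3 has no partner, Gaa differed by 0.22 (SE 0.06; limma, unadjusted p = 0.0182, adjusted p = 0.811), which makes 1 of the 36 genes under an unadjusted p of 0.05 there. The brighter Gaa probe has no value on MPE 1 and was not in that fit. Without a block its difference was -0.039. Same-numbered arrays correlated in their deviations from the group means at 0.247, 0.051 and 0.413, and differently numbered ones at -0.334 to 0.306. The labels do not say whether the numbers pair the arrays, and so few pairs cannot decide it. With the replicate block the median of the 36 genes was -0.0015. Keeping probes with missing values and a block for slide columns 1 and 2 against 3 and 4, both added after seeing the data, gave 0 calls among the 36 genes. Slc17a5 ranged from -0.44 to -0.21 and Idua from -0.45 to -0.28 on the log2 scale over 21 alternatives, which leave out the test of each probe. Neither they nor Atp6v1e2 were called in any of these. They came nearest with no filter, at a limma adjusted p of 0.0534 for Slc17a5 and 0.0687 for Idua. That setting called 9619 of all genes higher and 349 lower.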
